A study of Mus musculus with 12 samples.

Results

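The mitochondrial respiratory chain genes were examined in salivary tumors of 3 p53 genotypes. The members were all probe sets of the expression table whose single annotated gene symbol began with Nduf or Uqcr, was Sdha, Sdhb, Sdhc or Sdhd, or began with Cox followed by a digit from 4 to 8. This rule found 128 probe sets of 67 genes among 22626 probe sets tested, and 36 of the genes had more than 1 probe set. Another 8 probe sets of such genes carried several symbols and were left out. The groups were 4 MMTV-ras/p53R172H/R172H tumors (R172H tumors), 4 MMTV-ras/p53-/- tumors (p53-/- tumors) and 4 MMTV-ras/p53+/+ tumors (p53+/+ tumors). In the R172H mice both p53 alleles carried the R172H missense mutation, in the p53-/- mice both alleles were null, and in the p53+/+ mice both were wild type. All 12 tumors came from adult mice with an activated Hras transgene driven by the MMTV promoter, on a mixed Balb/c and C57BL/6 background, so the p53+/+ tumors are Ras-driven tumors and not normal gland. The R172H allele was brought into this colony from C57BL/6 mice, and any difference in background that came with it cannot be told apart from the genotype. The study reported earlier salivary tumor onset in p53-/- and R172H mice than in p53+/+ mice, earliest in p53-/- mice. The exact ages and the sexes of the mice behind these 12 tumors are not given in the sample titles. Any difference in age that came with the genotype cannot be told apart from it. Each tumor was profiled on 1 Affymetrix mouse expression array from frozen sections. Whether any 2 tumors shared a mouse is not given in the labels, and p-values below cover only the variation among the tumors arrayed.

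The respiratory chain sits in the inner mitochondrial membrane. Complex I takes electrons from NADH and complex II takes them from succinate, complex III passes them to cytochrome c, and complex IV hands them to oxygen, while complexes I, III and IV pump the protons that drive ATP synthase. The nuclear genes studied here encode the 4 subunits of complex II and many subunits of complexes I, III and IV. Other subunits of these 3 complexes are encoded by mitochondrial DNA or by nuclear genes outside the rule, such as Cyc1 of complex III. In salivary glands, the cells of striated ducts are rich in mitochondria, which power ion transport.

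The respiratory chain probe sets were among the brighter ones on the array. Their median level over the 12 tumors lay at the 93.9th percentile of all probe sets tested, and 103 of 128 lay above the array median in every tumor. Averaged over the 128 members, the log2 level was 9.44, 9.34, 9.47 and 9.50 in R172H tumors 1 to 4, 9.58, 9.53, 9.46 and 9.36 in p53-/- tumors 1 to 4, and 9.74, 9.52, 9.66 and 9.47 in p53+/+ tumors 1 to 4. The 3 groups overlapped in this mean, with p53+/+ tumor 1 the highest and R172H tumor 2 the lowest. The tumor with the highest value of all 12 was p53+/+ tumor 1 in 31 members (24.2%, against 10.7% of all probe sets). That tumor also stood apart in its lymphocyte markers, whose 12 probe sets averaged 8.52 in it and 5.47 to 5.77 in the other 11 tumors, and it had the lowest mean of the luminal epithelium markers (9.80). The part of these cells in its respiratory chain values was not tested. The tumor with the lowest value was p53-/- tumor 4 in 29 members (22.7%, against 14.5% of all probe sets).

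Some arrays stood apart. The 27 poly-A spike-in control probe sets, which report bacterial transcripts that can be added to RNA before labeling, averaged 10.38 to 10.56 in R172H tumors 1 to 3 and 3.98 to 4.23 in R172H tumor 4 and the other 8 tumors. R172H tumors 1 to 3 also had the lowest signal of the 18S rRNA control probe sets (6.41 to 6.59, against 7.66 in R172H tumor 4 and 7.36 to 8.03 in p53-/- tumors). In p53+/+ tumors 1 to 3 this signal was 8.90 to 9.33, above all other tumors, and in p53+/+ tumor 4 it was 7.51, within the range of the p53-/- tumors. Its part in the differences from p53+/+ tumors was not tested. In p53-/- tumor 4 the 3 prime probe set of the actin control exceeded the 5 prime one by 1.05, against 0.17 to 0.58 in the other tumors. Markers of luminal epithelium averaged 10.52 to 11.36 in R172H tumors, 11.10 to 11.36 in p53-/- tumors and 9.80 to 11.33 in p53+/+ tumors. No probe set carried Trp53 as its single symbol in the annotation table used. Probe sets with several symbols were not searched for it and Trp53 was not analysed here, so the genotypes are those of the labels.

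The first comparison set the p53-/- tumors against the p53+/+ tumors, which asks what loss of p53 changed. The limma test, fitted across all probe sets with Benjamini-Hochberg adjustment, called 3 of 128 members lower in p53-/- tumors and none higher. Over all probe sets it called 2.64% lower and 1.94% higher, so the members' share of 2.34% lower calls was close to the background. At an unadjusted p under 0.05, 22 members were lower and 5 higher (17.2% and 3.91%), against 13.5% and 10.5% of all probe sets. All p53-/- tumors lay below all p53+/+ tumors in 11 members and above them in 4 (8.59% and 3.12%), against 8.37% and 6.1% of all probe sets. The median difference of the members was -0.16 on the log2 scale, against -0.02 for all probe sets tested, and 83 of 128 members had a negative difference (64.8%, against 52.6% of all). Among the 107 members left once dim probe sets were dropped, the median difference was -0.21, against 0.07 for all 12197 probe sets kept.

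Ndufa1, a small accessory subunit of the membrane arm of complex I, was called lower in p53-/- tumors. Its log2 values were 11.00, 10.55, 10.67 and 10.76 in p53-/- tumors 1 to 4 and 11.44, 11.27, 11.35 and 11.12 in p53+/+ tumors 1 to 4. The groups did not overlap. The difference was -0.55 ± 0.14 (SE, n = 4 each, limma adjusted p = 0.0473). In R172H tumors 1 to 4 the values were 11.05, 10.90, 10.52 and 10.74, also below every p53+/+ tumor, with a difference from p53+/+ tumors of -0.49 ± 0.14 that missed the threshold (limma adjusted p = 0.113).

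Cox5b encodes a nuclear subunit of complex IV that is part of every form of the enzyme, and 1 of its 6 probe sets was called. That probe set, 1436149_at, was dim. It measured 6.24, 5.998, 6.12 and 6.41 in p53-/- tumors 1 to 4 and 6.69, 7.37, 6.97 and 6.71 in p53+/+ tumors 1 to 4, with no overlap. The difference was -0.75 ± 0.16 (SE, limma adjusted p = 0.0283). The 3 brightest probe sets of the gene, between 11.1 and 11.9 on average, gave differences of -0.35 ± 0.21, -0.18 ± 0.16 and -0.23 ± 0.16, and none of the other 5 probe sets passed (limma adjusted p between 0.334 and 0.651). The call on Cox5b therefore rested on its probe set 1436149_at alone.

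Cox6a2, the form of subunit VIa found in heart and skeletal muscle, was also called. Its probe set was dim too: its mean level lay at the 43.9th percentile of all probe sets tested, and the dim filter dropped it. It measured 6.35, 6.35, 6.50 and 6.45 in p53-/- tumors 1 to 4 and 6.96, 7.11, 6.94 and 6.59 in p53+/+ tumors 1 to 4. Every p53-/- tumor lay below every p53+/+ tumor, with p53+/+ tumor 4 nearest. The difference was -0.49 ± 0.12 (SE, limma adjusted p = 0.0472). A skeletal muscle marker moved the same way: Tnni2, fast troponin I, was called lower in p53-/- tumors at its probe set 1416889_at by -0.73 ± 0.16 (limma adjusted p = 0.0305). It was the 1 called probe set of 17 for 12 muscle genes, against 2.64% of all probe sets called lower. The other Tnni2 probe sets were not called, and 14 of the 17 lay below the array median in all 12 tumors. The mean level of the 17 was 5.05 to 5.19 in p53-/- tumors and 5.25 to 5.52 in p53+/+ tumors. In R172H tumors 1 to 4 it was 5.91, 5.14, 5.21 and 5.09, with R172H tumor 1 the highest of all 12. Cox6a2 measured 6.52, 6.55, 6.77 and 6.42 in these 4 R172H tumors. The part of muscle RNA in the Cox6a2 difference was not tested. In bulk tumor RNA, fewer cells of a type and less RNA per cell cannot be told apart.

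**Figure D1:**
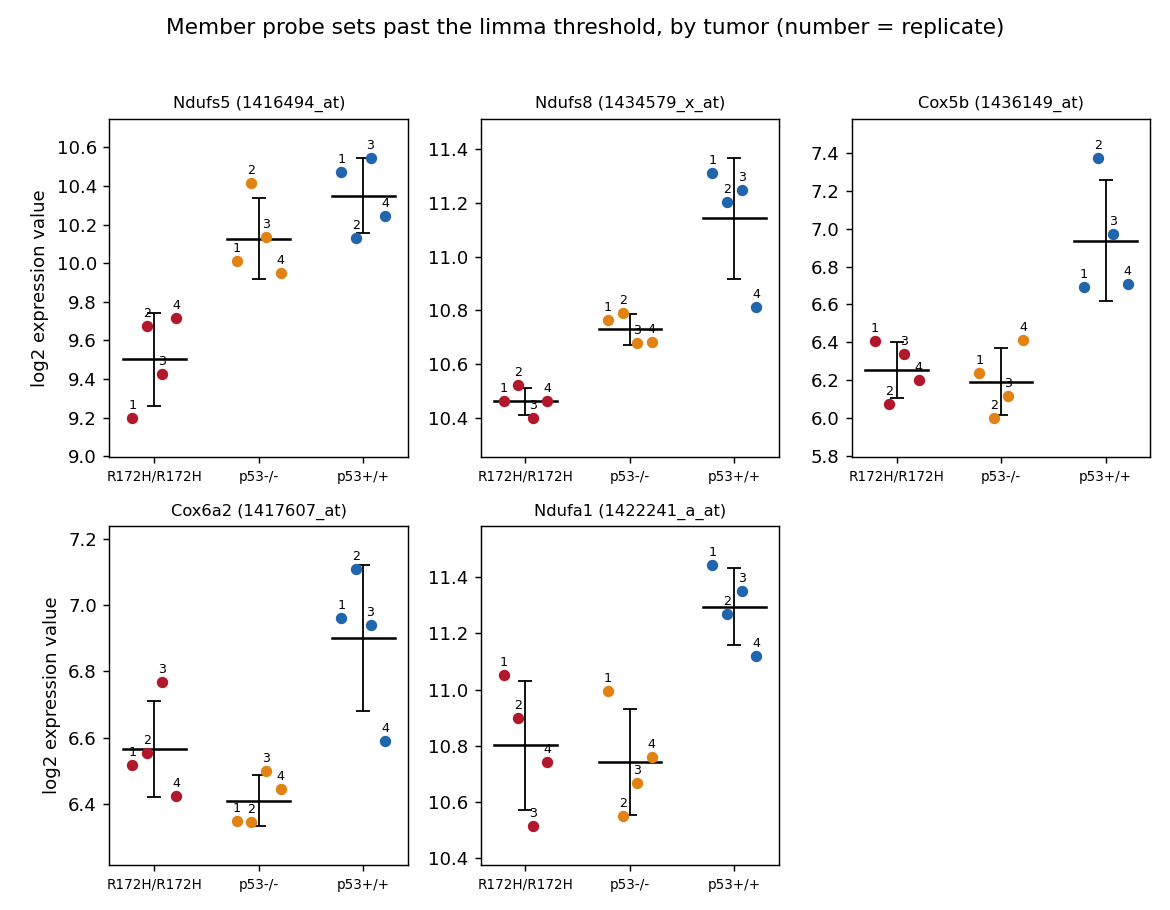
Log2 expression of the 5 member probe sets past the threshold in the fit of all 12 tumors, by tumor. Points are tumors numbered within their genotype (R172H/R172H left, p53-/- middle, p53+/+ right), bars are group means and whiskers the SD (n = 4). Ndufs8 and Ndufs5 passed between R172H/R172H and p53+/+ tumors, and Ndufa1, Cox5b and Cox6a2 between p53-/- and p53+/+ tumors. In Ndufs8 the 4 R172H/R172H tumors lie between 10.40 and 10.52, below the p53-/- tumors.

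These calls depended on single tumors. Without p53+/+ tumor 4, the tumor of its group with the low 18S rRNA signal and whose values lay nearest to the p53-/- tumors in Cox6a2 and Ndufa1, 9 members were called lower and 1 higher (7.03% and 0.781%), against 3.84% and 2.17% of all probe sets in the same fit. The 9 were Cox6a2, Ndufa1, the Cox5b probe set above, 5 of 6 Ndufs8 probe sets and Ndufv2 1438159_x_at, and the higher one was Ndufab1 1428160_at (0.70, limma adjusted p = 0.0429). Without p53-/- tumor 4, Ndufa2 was called higher (0.77, limma adjusted p = 0.0482), and the Cox5b probe set was the one called lower. No member was called when p53+/+ tumor 3, p53-/- tumor 2 or p53-/- tumor 3 was left out.

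The second comparison set the R172H tumors against the same p53+/+ tumors. limma called 2 of 128 members lower and none higher, 1.56% lower against 0.19% of all probe sets lower and 0.177% higher. At an unadjusted p under 0.05, 31 members were lower (24.2%, against 10.4% of all probe sets) and 8 higher (6.25%, against 8.97%). All R172H tumors lay below all p53+/+ tumors in 14 members and above them in 2 (10.9% and 1.56%), against 6.44% and 4.44% of all probe sets. The median member difference was -0.11, against -0.01 for all probe sets tested, and 83 of 128 members were negative, 64.8% against 51.2% of all. This comparison and the first share the p53+/+ tumors.

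Ndufs8, an iron-sulfur subunit of the complex I core that passes electrons towards ubiquinone, was called lower at its probe set 1434579_x_at. The values were 10.46, 10.52, 10.40 and 10.46 in R172H tumors 1 to 4 and 11.31, 11.20, 11.25 and 10.81 in p53+/+ tumors 1 to 4. The R172H tumors lay close together and below every other tumor, since the p53-/- tumors measured 10.77, 10.79, 10.68 and 10.68. The difference from p53+/+ tumors was -0.68 ± 0.11 (SE, n = 4 each, limma adjusted p = 0.0343). The same sign was found at all 6 probe sets of Ndufs8, with differences between -0.74 and -0.07. Across these 6 probe sets the R172H tumors lay below all p53+/+ tumors in 4. In p53-/- tumors the 6 differences from p53+/+ tumors were between -0.47 and -0.23, with none called. The 3 _x_at probe sets of the gene, some of whose probes may also bind other transcripts, correlated with the other 3 over the 12 tumors at r = 0.96.

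Ndufs5, an accessory subunit of complex I on the side of the intermembrane space, was the other. It measured 9.20, 9.68, 9.42 and 9.71 in R172H tumors 1 to 4 and 10.47, 10.13, 10.55 and 10.24 in p53+/+ tumors 1 to 4. All 4 R172H tumors lay below all p53+/+ tumors and below all p53-/- tumors, which measured 10.01, 10.42, 10.13 and 9.95. The difference from p53+/+ tumors was -0.85 ± 0.15 (SE, limma adjusted p = 0.0467) and that from p53-/- tumors was -0.62 ± 0.15 (limma adjusted p = 0.243).

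The spike-in controls part R172H tumors 1 to 3 from all other tumors, so R172H tumor 4 gives the values on the same side as the other genotypes. With that split as a block in the fit, which rests on R172H tumor 4 alone, the difference from p53+/+ tumors was -0.68 ± 0.18 for Ndufs8 1434579_x_at and -0.63 ± 0.24 for Ndufs5. Neither was called in that fit (limma adjusted p = 0.411 and 0.521), nor was any other member between R172H and p53+/+ tumors. Ndufs8 therefore differed by as much in R172H tumor 4 as in the whole group, and Ndufs5 by less. Over all members, 67 of 128 had a negative difference from p53+/+ tumors with that block (52.3%, against 54.6% of all probe sets). The excess of negative members seen without the block was thus not seen with it.

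Ndufs7, Ndufc1, Ndufaf4 and Sdhd had the other large differences between R172H and p53+/+ tumors, and none passed. Ndufs7, another iron-sulfur protein of the core, measured 8.56, 8.08, 8.61 and 9.14 in R172H tumors 1 to 4 and 10.04, 9.42, 9.84 and 9.36 in p53+/+ tumors 1 to 4 at probe set 1424313_a_at. The groups did not overlap, and the difference was -1.07 ± 0.21 (limma adjusted p = 0.0589). It was -0.45 ± 0.16 at the other probe set of the gene. Ndufc1 1416285_at had 1.06 ± 0.28 (limma adjusted p = 0.101) and Sdhd 1437489_x_at -0.88 ± 0.33 (limma adjusted p = 0.182).

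Ndufaf4, an assembly factor of complex I, varied most of all members over the 12 tumors (SD 0.77 at probe set 1435333_at). It measured 6.38, 6.24, 6.25 and 6.96 in R172H tumors, 6.62, 6.81, 6.46 and 6.30 in p53-/- tumors, and 8.40, 5.87, 8.09 and 7.31 in p53+/+ tumors. The spread lay within the p53+/+ group, where tumors 1 and 3 were highest and tumor 2 was the lowest of all 12. Without p53+/+ tumor 2, Ndufaf4 was called lower in R172H tumors (-1.48, limma adjusted p = 0.0334) and in p53-/- tumors (-1.39, limma adjusted p = 0.0239). At the other end, Ndufa10 1418068_at had an SD of 0.09 and Ndufa13, a bright accessory subunit, an SD of 0.14.

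Grouped by role, the core subunits of complex I had mostly negative differences in both p53-altered groups. The core holds the flavin and iron-sulfur clusters, and 16 probe sets measured 6 of its nuclear genes (Ndufs1, Ndufs3, Ndufs7, Ndufs8, Ndufv1 and Ndufv2). In p53-/- tumors 15 of 16 had a negative difference from p53+/+ tumors, with a median of -0.43 (quartiles -0.47 and -0.39). In R172H tumors it was again 15 of 16, with a median of -0.52 (quartiles -0.68 and -0.26). limma called none of the 16 in p53-/- tumors and only Ndufs8 1434579_x_at in R172H tumors. The 1 probe set with the other sign was that of Ndufs3, a core subunit of the peripheral arm, which measured 10.65, 10.15, 10.57 and 10.76 in R172H tumors, 10.28, 10.63, 10.49 and 9.55 in p53-/- tumors, and 10.34, 10.21, 10.20 and 10.08 in p53+/+ tumors. Probe sets of 1 gene are not independent, and Ndufs8 gave 6 of the 16.

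Ndufv1, which binds NADH and the flavin, had 3 probe sets. At 1415966_a_at it measured 9.73, 9.41, 9.48 and 9.58 in R172H tumors 1 to 4, 9.53, 9.54, 10.17 and 9.84 in p53-/- tumors 1 to 4, and 10.29, 10.33, 10.26 and 9.93 in p53+/+ tumors 1 to 4. The R172H tumors lay below all p53+/+ tumors (-0.65 ± 0.16, limma adjusted p = 0.0784), and p53-/- tumor 3 lay among the p53+/+ tumors (-0.43 ± 0.16, limma adjusted p = 0.123). Its partner Ndufv2, an iron-sulfur subunit of the same module, ranged from -0.71 to -0.16 over 3 probe sets in R172H tumors and from -0.63 to -0.26 in p53-/- tumors.

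**Figure D2:**
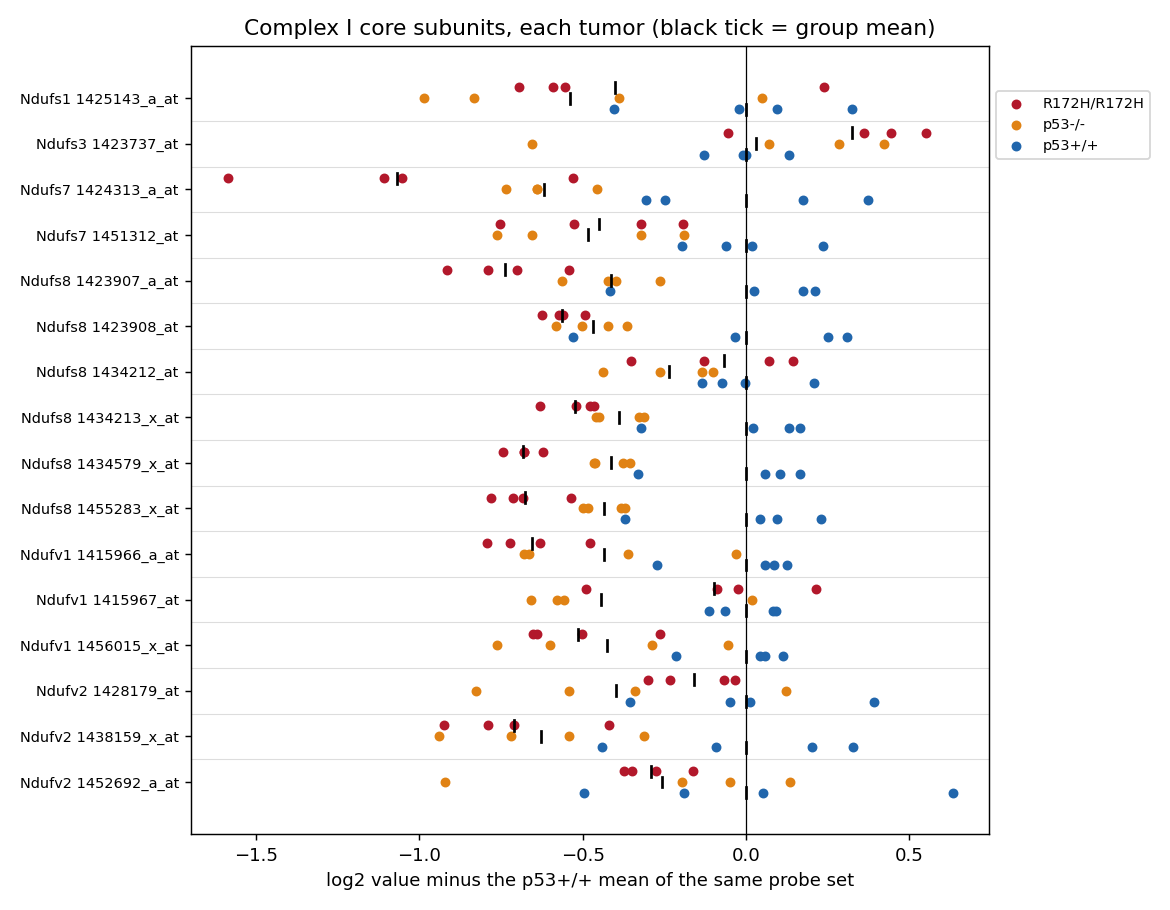
Each tumor's log2 value at the 16 probe sets of the complex I core, relative to the mean of the p53+/+ tumors at the same probe set. Red points (upper) are R172H/R172H, orange (middle) p53-/- and blue (lower) p53+/+ tumors, 4 each, and black ticks are group means. The means of both p53-altered groups lie left of 0 at 15 of 16 probe sets, Ndufs3 being the exception, and p53+/+ tumor 4 is the lowest blue point at all 6 Ndufs8 probe sets.

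The promoters of 4 called genes and of 2 further core subunits of complex I are shown because the transcription factors NRF1, GABP and YY1 are known to bind promoters of nuclear respiratory chain genes. Each sequence runs 5′ to 3′ from 250 bases before to 50 after the RefSeq start (GRCm38.p6), with Ndufs3 at chr2:90904672-90904971 (minus strand), Ndufs7 at chr10:80249199-80249498 (plus strand), Ndufs8 at chr19:3912725-3913024 (minus strand), Ndufs5 at chr4:123718137-123718436 (minus strand), Ndufa1 at chrX:37191189-37191488 (minus strand) and Cox5b at chr1:36691237-36691536 (plus strand). Capitals mark matches on either strand to the NRF1 core consensus, to CCGGAAG (GABP) or to AAGATGGC (YY1), and no matches overlapped. Cox6a2, the other called gene, had no entry in the promoter table used.
Ndufs3: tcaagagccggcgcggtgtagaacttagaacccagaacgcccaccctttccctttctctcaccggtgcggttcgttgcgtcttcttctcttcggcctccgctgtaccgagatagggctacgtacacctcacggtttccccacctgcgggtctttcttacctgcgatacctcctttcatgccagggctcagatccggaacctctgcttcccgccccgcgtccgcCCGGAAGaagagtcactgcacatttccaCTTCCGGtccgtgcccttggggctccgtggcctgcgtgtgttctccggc
Ndufs7: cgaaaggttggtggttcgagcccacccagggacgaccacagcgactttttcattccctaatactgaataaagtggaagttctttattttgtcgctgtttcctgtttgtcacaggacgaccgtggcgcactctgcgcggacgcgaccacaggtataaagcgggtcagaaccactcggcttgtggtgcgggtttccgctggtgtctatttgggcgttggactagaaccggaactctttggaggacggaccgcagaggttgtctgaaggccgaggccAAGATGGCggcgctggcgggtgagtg
Ndufs8: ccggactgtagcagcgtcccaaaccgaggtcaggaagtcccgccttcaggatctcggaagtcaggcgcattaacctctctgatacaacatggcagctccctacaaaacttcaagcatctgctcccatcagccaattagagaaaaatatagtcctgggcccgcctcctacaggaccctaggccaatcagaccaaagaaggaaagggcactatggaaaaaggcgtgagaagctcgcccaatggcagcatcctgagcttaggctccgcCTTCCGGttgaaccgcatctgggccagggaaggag
Ndufs5: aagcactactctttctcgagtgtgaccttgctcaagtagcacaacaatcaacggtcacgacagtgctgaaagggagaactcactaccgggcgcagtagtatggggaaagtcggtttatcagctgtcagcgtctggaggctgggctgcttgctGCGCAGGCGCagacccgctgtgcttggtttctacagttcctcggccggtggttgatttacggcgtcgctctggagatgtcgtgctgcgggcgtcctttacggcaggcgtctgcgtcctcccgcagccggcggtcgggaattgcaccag
Ndufa1: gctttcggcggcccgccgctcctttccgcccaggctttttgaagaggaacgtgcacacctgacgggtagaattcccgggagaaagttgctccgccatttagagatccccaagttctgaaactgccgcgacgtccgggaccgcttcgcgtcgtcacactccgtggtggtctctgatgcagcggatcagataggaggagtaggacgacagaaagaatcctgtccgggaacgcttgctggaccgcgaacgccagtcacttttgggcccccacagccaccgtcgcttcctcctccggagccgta
Cox5b: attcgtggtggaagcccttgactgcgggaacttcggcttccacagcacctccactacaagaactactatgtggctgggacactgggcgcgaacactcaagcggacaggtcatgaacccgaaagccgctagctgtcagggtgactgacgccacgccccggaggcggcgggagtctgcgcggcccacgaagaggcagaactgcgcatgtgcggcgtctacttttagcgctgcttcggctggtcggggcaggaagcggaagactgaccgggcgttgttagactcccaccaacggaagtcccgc
Ndufs3, the core gene without a negative difference, had 2 GABP matches, Ndufs8 had 1 GABP match, Ndufs7 1 YY1 match and Ndufs5 1 NRF1 core match, while Ndufa1 and Cox5b had none in these windows. RefSeq promoters were matched for 55 of the 67 genes (57 promoters). The NRF1 core was found in 11 of these 57 (19.3%, against 4.6% of 32851 promoters of the same length), the GABP letters in 12 (21.1%, against 8.86%) and the YY1 letters in 6 (10.5%, against 2.75%). A match describes the letters only and is not a measured binding site.

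The other groups held differences of both signs, apart from Cox7a2l. Of 51 probe sets for 27 accessory subunits of complex I, 29 were lower and 22 higher in p53-/- than in p53+/+ tumors (median -0.05), and 34 were lower and 17 higher in R172H than in p53+/+ tumors (median -0.10). The 7 complex II probe sets had a median of -0.33 in p53-/- tumors and -0.01 in R172H tumors, relative to p53+/+ tumors. The 15 complex III probe sets had medians of -0.06 and 0.07 in these 2 comparisons, and the 24 of common complex IV subunits -0.07 and 0.03. Cox7a2l, grouped here by a reported role in joining complexes III and IV, had negative differences at all 3 probe sets. They lay between -0.65 and -0.49 in p53-/- tumors and between -0.59 and -0.36 in R172H tumors. None was called (lowest limma adjusted p = 0.0815), and the role of the gene in these mice was not tested.

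**Figure D3:**
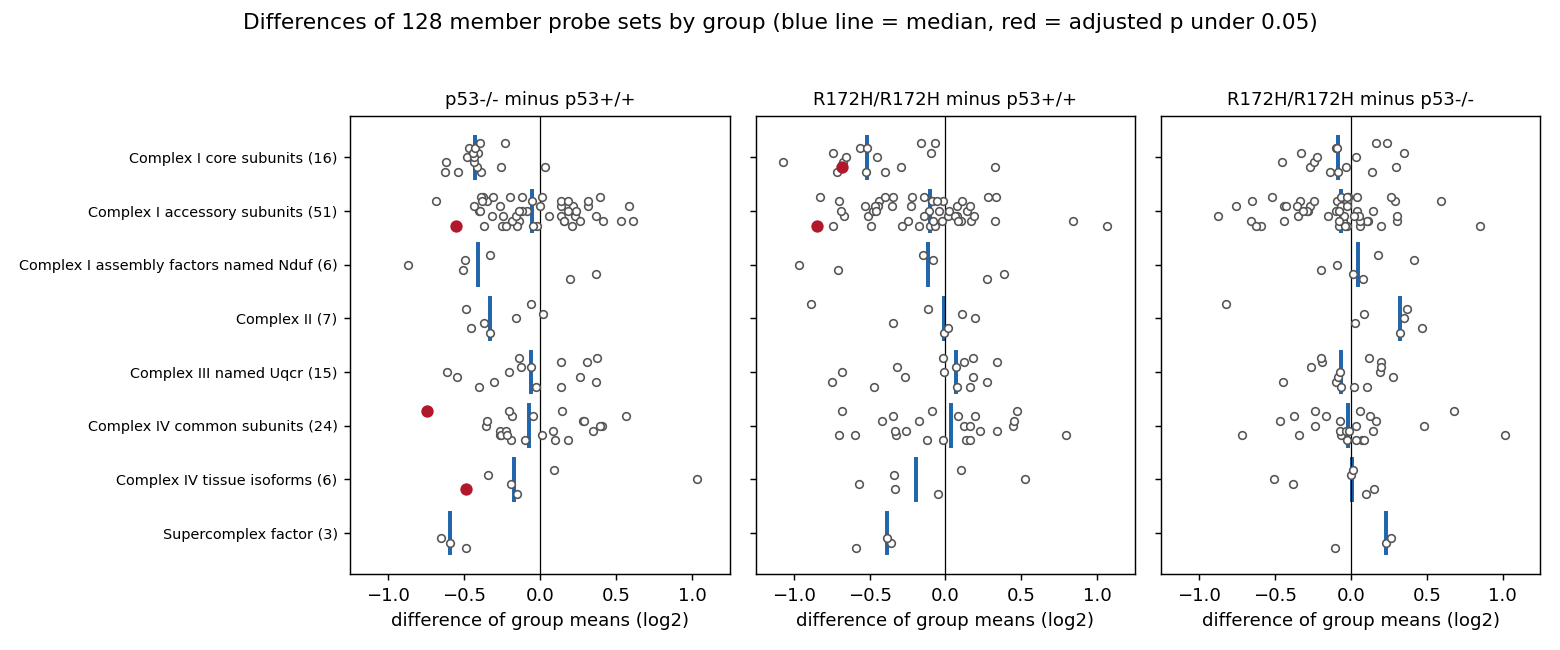
Differences of group means (log2) of the 128 member probe sets, by role, for p53-/- minus p53+/+ tumors (left), R172H/R172H minus p53+/+ tumors (middle) and R172H/R172H minus p53-/- tumors (right). Each circle is a probe set, filled red where the limma adjusted p was under 0.05, and blue lines are group medians. The 16 core probe sets of complex I have medians of -0.43, -0.52 and -0.09 in the 3 panels, and those of complex III and the common complex IV subunits have medians between -0.07 and 0.07.

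Complex II, succinate dehydrogenase, is the link of the chain to the citric acid cycle. Its flavoprotein Sdha measured 10.92, 10.52, 10.56 and 10.26 in R172H tumors, 10.27, 10.26, 10.69 and 9.74 in p53-/- tumors, and 10.76, 10.13, 10.64 and 10.76 in p53+/+ tumors at 1426688_at, with all 3 groups overlapping. The differences were -0.33 ± 0.22 in p53-/- tumors and -0.01 ± 0.22 in R172H tumors, relative to p53+/+ tumors. The iron-sulfur subunit Sdhb had -0.37 ± 0.26 and -0.35 ± 0.26 in the same order of comparisons. The membrane anchor Sdhc had differences between -0.16 and 0.19 at its probe sets. For the other anchor, Sdhd, the 2 probe sets parted: in R172H relative to p53+/+ tumors 1428235_at gave -0.11 ± 0.30 and 1437489_x_at -0.88 ± 0.33. No Sdh probe set was called in any comparison.

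Complex IV has subunit forms that are restricted to certain tissues. The 6 probe sets of such forms were mostly dim. Their median level lay at the 38.6th percentile of all probe sets tested, and 1 of the 6 lay above the array median in every tumor. Cox7a1, the heart and muscle form of subunit VIIa that brown fat also expresses, had the highest difference of all members between p53-/- and p53+/+ tumors. It measured 7.95, 6.70, 6.16 and 7.34 in p53-/- tumors 1 to 4 and 5.62, 6.35, 5.85 and 6.20 in p53+/+ tumors 1 to 4. The p53-/- tumors 1 and 4 were high, tumor 3 lay among the p53+/+ tumors, and the difference of 1.03 ± 0.35 did not pass (limma adjusted p = 0.105). R172H tumors 1 to 4 measured 5.92, 6.80, 6.76 and 6.63. The widespread form Cox7a2 had 0.35 ± 0.18 and 0.39 ± 0.20 between p53-/- and p53+/+ tumors at its 2 probe sets, without overlap of the groups and without a call (limma adjusted p = 0.275 and 0.251).

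For subunit VIa, the widespread form Cox6a1 had positive differences beside the lower Cox6a2. Cox6a1 gave 0.41 ± 0.20 and 0.28 ± 0.17 in p53-/- tumors and 0.44 ± 0.20 and 0.45 ± 0.17 in R172H tumors, relative to p53+/+ tumors, and none was called (lowest limma adjusted p = 0.188). For subunit VIb, the testis form Cox6b2 stood at 7.08 in p53-/- tumor 1 and at 5.65 to 6.06 in the other p53-/- tumors, against 5.93 to 6.70 in p53+/+ tumors. The ubiquitous Cox6b1 was steady (SD 0.16 over the 12 tumors at 1416565_at). For subunit VIII, the muscle form Cox8b measured 5.88 to 6.08 in p53-/- tumors and 6.18 to 6.56 in p53+/+ tumors, a difference of -0.34 ± 0.11 (limma adjusted p = 0.0903). The isoforms Cox4i2 and Cox8c had differences between -0.15 and 0.10 in both comparisons with p53+/+ tumors, and Cox4i1, the main form of subunit IV, had -0.19 ± 0.15 and -0.12 ± 0.15.

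**Figure D4:**
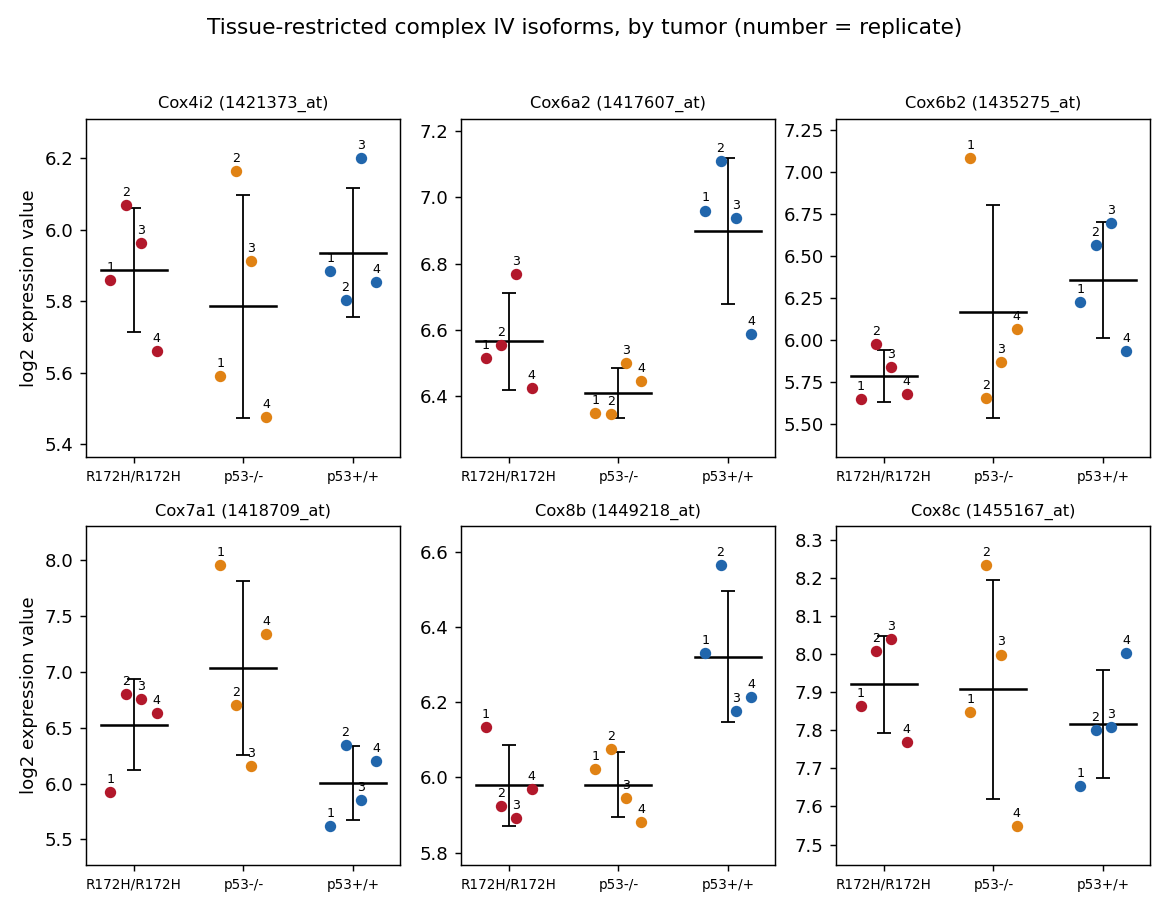
Log2 expression of 6 tissue-restricted complex IV isoforms by tumor, R172H/R172H left, p53-/- middle and p53+/+ right. Points are tumors numbered within their genotype, bars are group means and whiskers the SD (n = 4). Most values are dim, with 1 of the 6 probe sets above the array median in every tumor. Cox7a1 is high in p53-/- tumors 1 (7.95) and 4 (7.34), Cox6b2 in p53-/- tumor 1 (7.08), and Cox6a2 and Cox8b are lower in all p53-/- than in all p53+/+ tumors.

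The third comparison set the R172H tumors against the p53-/- tumors, which asks what the mutant protein adds to the loss of p53. limma called no member in either direction, against 0.00884% of all probe sets higher and 0.0% lower. At an unadjusted p under 0.05, 7 members were higher and 10 lower in R172H tumors (5.47% and 7.81%), against 5.01% and 4.57% of all probe sets. All R172H tumors lay above all p53-/- tumors in 0 members and below them in 7 (5.47%), against 2.88% and 1.97% of all probe sets. The median member difference was -0.03, against 0.02 for all probe sets tested. The 5 largest differences were those of Cox8a 1448222_x_at (1.01 ± 0.34, limma adjusted p = 0.368), Ndufab1 1435934_at (-0.87 ± 0.40), Ndufc1 1416285_at (0.85 ± 0.28), Sdhd 1437489_x_at (-0.82 ± 0.33) and Ndufa5 1417285_a_at (-0.76 ± 0.20, limma adjusted p = 0.276).

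R172H tumor 4 lay outside the range of R172H tumors 1 to 3 in 91 members (71.1%, against 63.1% of all probe sets), above it in 52 (40.6%, against 27.7%) and below it in 39 (30.5%, against 35.4%). The members described next were chosen for their large differences between these tumors, so their values are a description. Cox8a, the widespread form of subunit VIII, measured 12.06, 12.10 and 12.24 in R172H tumors 1 to 3 at 1448222_x_at. It measured 10.35 in R172H tumor 4, 10.55, 10.62, 10.94 and 10.57 in p53-/- tumors, and 10.81, 11.01, 10.79 and 10.96 in p53+/+ tumors. R172H tumor 4 was thus the lowest of all 12, and R172H tumors 1 to 3 were the highest. A second probe set, 1416112_at, gave 11.62, 11.78 and 11.87 in R172H tumors 1 to 3 and 10.40 in R172H tumor 4. The dim remaining probe set of the gene, 1436409_at, gave 5.12 to 5.53 in the same 3 tumors and 5.21 in R172H tumor 4.

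Ndufc1, a small membrane subunit of complex I, parted in opposite ways at its probe sets. At 1416285_at R172H tumors 1 to 3 measured 10.48, 11.09 and 11.38, R172H tumor 4 9.84, the p53-/- tumors 9.73 to 10.01 and the p53+/+ tumors 9.34 to 9.89. At 1448284_a_at R172H tumors 1 to 3 measured 9.45, 9.93 and 10.27, R172H tumor 4 10.84, the p53-/- tumors 10.59 to 11.10 and the p53+/+ tumors 10.03 to 10.67. The first probe set put R172H tumors 1 to 3 above all other tumors, and the second put R172H tumors 1 and 2 below all others. Ndufb6, another accessory subunit, measured 9.52, 9.64 and 9.50 in R172H tumors 1 to 3 at 1434056_a_at, against 10.90 in R172H tumor 4, 10.27 to 10.66 in p53-/- tumors and 10.27 to 11.15 in p53+/+ tumors. Its other probe set, 1434057_at, gave 10.08 to 10.37 in these 3 tumors and 9.80 to 10.80 in the other 9.

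In all, R172H tumors 1 to 3 lay entirely above the other 9 tumors in 7 member probe sets and entirely below them in 14. These were 5.47% and 10.9% of the members, against 2.48% above and 2.18% below of all probe sets. The 7 were 2 of Cox8a and 1 each of Ndufa4, Ndufab1, Ndufb9, Ndufc1 and Sdhc. The 14 were 2 each of Ndufb11 and Ndufs8 and 1 each of Cox5b, Cox6c, Ndufa10, Ndufb5, Ndufb6, Ndufc2, Ndufs5, Ndufs7, Sdhd and Uqcrc2. The genotype and the spike-in split share these 3 tumors, and their parts in the pattern cannot be told apart beyond R172H tumor 4. In R172H tumor 4, on the same side of that split as the other genotypes, the difference from p53+/+ tumors was -0.54 ± 0.18 for Cox8a 1448222_x_at, 0.21 ± 0.32 for Ndufc1 1416285_at, 0.18 ± 0.33 for Ndufb6 1434056_a_at and -0.53 ± 0.28 for Ndufs7 1424313_a_at, none called.

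Leaving R172H tumor 4 out raised the number of calls. In that fit the R172H genotype coincides with the spike-in split, so its p-values cannot tell the genotype apart from the split. Between R172H tumors 1 to 3 and p53+/+ tumors, limma called 4 members higher and 12 lower (3.12% and 9.38%), against 1.76% and 1.78% of all probe sets. The 4 were both bright Cox8a probe sets (1.24 ± 0.12 and 0.81 ± 0.12), Ndufc1 1416285_at (1.35 ± 0.22) and Ndufab1 1428160_at. Lower were 4 probe sets of Ndufs8, 2 of Ndufb11, and 1 each of Ndufs5, Ndufs7, Ndufa12, Ndufb6, Cox6c and Uqcrc2, Uqcrc2 being a core protein of complex III. Between R172H tumors 1 to 3 and p53-/- tumors, 3 members were called higher and none lower, against 0.495% and 0.544% of all probe sets. These 3 were the Cox8a probe sets (1.46 ± 0.12 and 1.02 ± 0.12, limma adjusted p = 0.00121 and 0.00995) and Ndufc1 1416285_at (1.14 ± 0.22, limma adjusted p = 0.0415). With the split as a block, which rests on R172H tumor 4, the Cox8a differences from p53-/- tumors were -0.32 and -0.34. Leaving out p53+/+ tumor 4 instead gave 11 members lower and 1 higher in R172H tumors, against 1.55% and 1.01% of all probe sets. Those 11 were 5 of Ndufs8 and 1 each of Ndufs5, Ndufs7, Ndufv1, Ndufv2, Cox6c and Cox5b.

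The kind of probe set went with the direction. On this array the suffix _at marks a probe set unique to its transcript, _a_at one whose probes are shared by transcripts of the same gene, _s_at one shared by transcripts of different genes, and _x_at one with probes that may bind unrelated transcripts. Of the 60 plain _at members, R172H tumors 1 to 3 lay above the other 9 tumors in 5 (8.33%, against 2.56% of all _at probe sets) and below them in 2 (3.33%, against 1.33%). All _at probe sets also lay above more often than below, 399 against 208. Of the 35 _a_at members they lay above in 0 and below in 7 (20.0%, against 2.8% of all _a_at probe sets). Of the 23 _x_at members they lay above in 2 and below in 4 (17.4%, against 8.47% of all _x_at probe sets).

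Among the member genes, 28 had both a plain _at probe set and another kind. The difference of R172H tumors 1 to 3 from the other 9 tumors was higher at the plain _at probe sets in 20 of 28 genes (71.4%, against 57.2% of 2585 genes on the array), by a median of 0.35 (against 0.05). The gap was 1.95 for Ndufc1, 1.08 for Cox6c, 1.07 for Sdhd and 0.96 for Ndufb6, and it ran the other way for Cox8a (-0.86) and Uqcrb (-0.74). In 23 of the 36 genes with several probe sets, those probe sets did not share a sign between R172H and p53-/- tumors, against 12 of 36 between R172H and p53+/+ tumors and 10 of 36 between p53-/- and p53+/+ tumors. In 16 genes with an _x_at probe set and another kind, the 2 kinds correlated over the 12 tumors at r between 0.43 (Sdhd) and 0.99 (Uqcr10), above 0.9 in 9 genes, a description of values that share arrays and normalization.

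**Figure D5:**
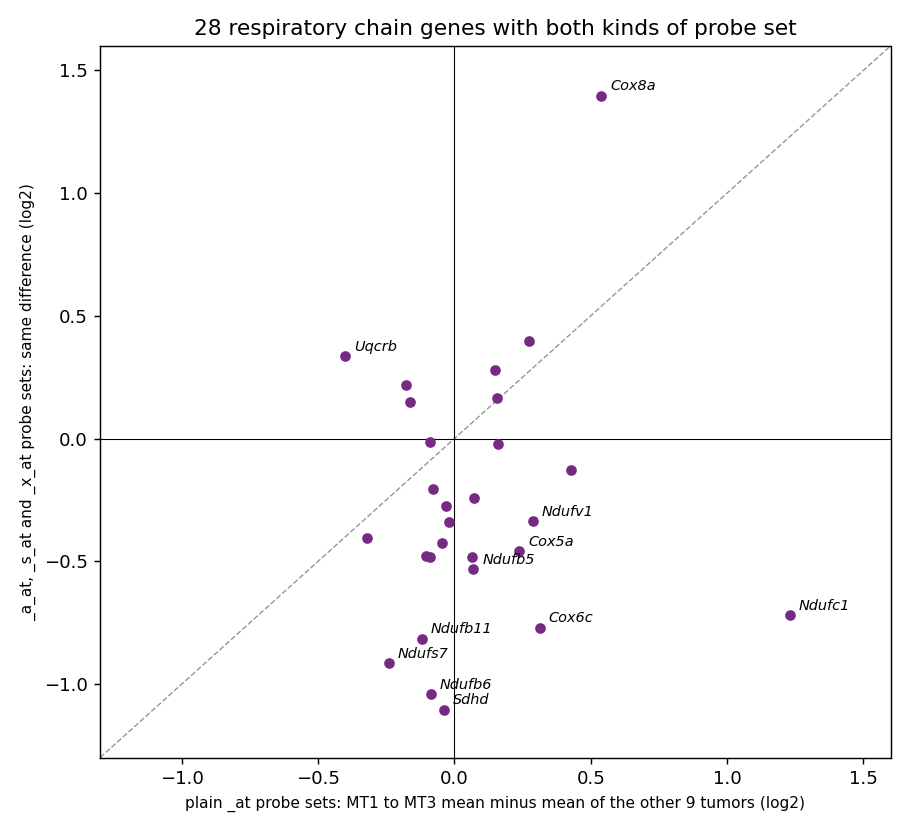
Mean log2 difference of R172H/R172H tumors 1 to 3 from the other 9 tumors in 28 genes that have both kinds of probe set, at plain _at probe sets (horizontal) and at _a_at, _s_at and _x_at probe sets of the same gene (vertical). Points are genes, the dashed line marks equal values, and genes over 0.6 from it are named. In 20 of 28 genes the point lies below the line, Ndufc1 farthest (1.23 at the plain probe set, -0.72 at the other).

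Between genotypes the 23 _x_at members had a median difference of -0.22 between p53-/- and p53+/+ tumors and of -0.34 between R172H and p53+/+ tumors, with 18 and 17 of them negative. Over all 1512 _x_at probe sets the medians were -0.04 and -0.13. The 60 plain _at members had -0.12 and -0.04, against -0.01 and 0.005 over all _at probe sets. The 35 _a_at members had -0.25 and -0.35, against -0.04 and -0.02 over all _a_at probe sets. The 10 _s_at members had -0.08 and -0.04, against 0.01 and -0.02 over all _s_at probe sets. The lower median in R172H tumors was thus found at _a_at and _x_at members and was near 0 at plain _at and _s_at members.

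Genes that work beside the respiratory chain were counted from lists of their pathways. Over all probe sets, limma called 2.64% lower and 1.94% higher in p53-/- tumors, relative to p53+/+ tumors. In R172H tumors the shares were 0.19% lower and 0.177% higher. Of 29 ATP synthase probe sets, 2 were called lower in p53-/- than in p53+/+ tumors, Atp5b, the catalytic beta subunit (-0.87 ± 0.21, limma adjusted p = 0.0411), and Atp5d (-0.87 ± 0.22). The list as a whole went both ways, with 15 probe sets higher and 14 lower (median 0.01). Of 25 for the citric acid cycle and pyruvate dehydrogenase, 6 were called lower. They included all 3 probe sets of Cs, citrate synthase, the enzyme that opens the cycle. Cs 1422577_at measured 7.87, 8.20, 8.20 and 7.96 in p53-/- tumors and 9.56, 8.82, 9.34 and 9.32 in p53+/+ tumors, without overlap (-1.20 ± 0.15, limma adjusted p = 0.00675), and R172H tumors lay between at 8.81, 8.56, 8.61 and 8.74. Pdha1 (-1.14 ± 0.22), Sucla2 (-0.62 ± 0.15) and Dlst (-0.50 ± 0.12) were the others. Atp5d, Pdha1 and Dlst also had probe sets that were not called. No probe set of either list was called in R172H relative to p53+/+ or p53-/- tumors.

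Among regulators of mitochondrial biogenesis, Esrra was called lower in both p53-altered groups. This nuclear receptor, ERR alpha, drives respiratory chain genes with PGC-1 coactivators. It measured 7.97, 8.06, 8.05 and 8.02 in R172H tumors, 7.90, 8.21, 8.20 and 8.27 in p53-/- tumors, and 8.90, 8.53, 8.75 and 8.66 in p53+/+ tumors. The differences were -0.68 ± 0.11 in R172H tumors (limma adjusted p = 0.0325) and -0.56 ± 0.11 in p53-/- tumors (limma adjusted p = 0.0214). It was the 1 called of 30 probe sets of that list, which also held Nrf1, Tfam and Ppargc1a. Of 10 probe sets for reported p53 targets with a mitochondrial role, Sesn1 (-0.94 ± 0.13, limma adjusted p = 0.00845) and Coq8a, a kinase-like protein of coenzyme Q synthesis (-0.79 ± 0.12, limma adjusted p = 0.0101), were called lower in p53-/- tumors. Coq8a was also called lower in R172H tumors (-0.77 ± 0.12, limma adjusted p = 0.0248). Oxa1l, an inner membrane insertase, was the 1 called of 24 in the list of cytochrome c and assembly factors of complexes III and IV (-0.79 ± 0.19 in p53-/- tumors), and Tomm20, an import receptor, the 1 of 31 for the outer membrane and import (-0.74 ± 0.19). Such single calls, in lists of 24 to 31 probe sets, lay near the 2.64% of all probe sets called lower in p53-/- tumors. Sesn1, Coq8a, Oxa1l and Tomm20 each had other probe sets that were not called. None of 11 probe sets for other assembly factors of complexes I and II was called in any comparison.

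Markers of some other cell types differed between the genotypes. For the counts below, 2.64% of all probe sets were called lower and 1.94% higher in p53-/- tumors, relative to p53+/+ tumors. The 10 probe sets of acinar and demilune markers averaged 8.34 to 9.01 in R172H tumors, 7.72 to 9.21 in p53-/- tumors and 9.83 to 11.31 in p53+/+ tumors, without overlap of either p53-altered group with p53+/+ tumors. Of these, Prpmp5 and Dcpp1 were called lower in p53-/- tumors (-4.91 ± 0.63 and -3.16 ± 0.57). Macrophage markers averaged 8.30 to 9.43 in R172H, 8.59 to 9.17 in p53-/- and 9.04 to 9.55 in p53+/+ tumors, with 3 of 12 called lower in p53-/- tumors. Endothelial markers averaged 5.56 to 5.76, 5.22 to 5.61 and 5.63 to 5.95 in the same order of groups, with 3 of 8 called lower in p53-/- tumors. Called lower in p53-/- tumors were also 1 of 12 probe sets for lymphocytes (Cd4) and 1 of 12 for pericytes and smooth muscle (Rgs5), and 1 of 8 for granular and striated ducts was called higher (Kcnma1). Cd4, Rgs5 and Kcnma1 had other probe sets that were not called. The 8 duct probe sets averaged 6.16, 5.29, 8.48 and 5.58 in p53-/- tumors 1 to 4. They averaged 5.16 to 5.40 in R172H tumors and 5.35 to 5.54 in p53+/+ tumors. Between p53-/- and p53+/+ tumors 7 of the 8 were higher and 1 lower. In R172H tumors C1qb, a macrophage gene, was the marker probe set called lower. None was called for adipocytes, basal and myoepithelial cells, fibroblasts, red blood cells or luminal epithelium. The part of these cells in the respiratory chain differences was not tested.

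Over the 12 tumors, the genes whose values were most like the mean of the 128 members were Mrps28 (Pearson r = 0.94), Tmpo (0.91), Lta4h (0.89), Eif3m (0.89) and Mrpl54 (0.89). Mrps28 and Mrpl54 encode proteins of the mitochondrial ribosome, and the Eif3m probe set was dim. These correlations are a description over 12 tumors that share arrays, normalization and genotype groups.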

How the data were processed

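Expression was measured in 12 tumors, 1 array each. Per the labels and the study's methods, the authors deposited log2 values from RMA in BRB-ArrayTools, while the submitters' processing notes name RMA and MAS5 without saying which made the table. The values were used as deposited, after 64 control probe sets were removed (22690 rows, 22626 tested). Genes were named through the platform annotation, and chromosomes and promoters through RefSeq (GRCm38.p6). limma 3.58.1 in R 4.3.3 fitted the 3 genotypes together (9 residual degrees of freedom), with moderated tests and Benjamini-Hochberg adjustment over all probe sets at 0.05. The script was tested on simulated data. The number of arrays limits the precision. The members and lists were chosen with earlier results of these data known. Named members were, in each comparison, the called ones whose groups did not overlap or, with fewer than 3 called, the 5 with the largest difference, the Sdh genes, the complex IV isoforms, genes whose probe sets differed in call, the 5 most and 5 least variable, and those in which R172H tumor 4 lay farthest from R172H tumors 1 to 3. Other members were named after their values were seen. Other genes were up to 3 called per list, markers that moved with a member, and the 5 most correlated. Alternatives were the dim filter, centering, cyclic loess, other fits, blocks and leaving out each tumor. A block on the poly-A control level was fitted as a labeling batch, an inferred split that no source names.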

Additional observations from a re-analysis of the deposited data

Results flagged for a closer look

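Within each genotype of 4 tumors, a tumor standing far from the other 3 was looked for in 162 groups of values, 3 genotypes at each of the 54 named probe sets. Chance marks about 1 in 20 groups that were not chosen by their values. That rate does not apply here, since some of these probe sets were named for the distance of R172H tumor 4 from R172H tumors 1 to 3 or for their spread. It was found in 6. R172H tumor 4 stood apart at Cox8a 1448222_x_at, at 10.35 against 12.06 to 12.24 in R172H tumors 1 to 3, and at Ndufb6 1434056_a_at, at 10.9 against 9.50 to 9.64. Both were named partly for that distance, so these values restate the choice. R172H tumor 2 was low at Cox7a2 1416971_at, at 10.66 against 11.51 to 11.64 in the other R172H tumors. p53-/- tumor 1 was high at Cox7a2l 1432264_x_at, at 10.32 against 9.72 to 9.77 in the other p53-/- tumors. p53+/+ tumor 4 was low at Ndufa5 1417285_a_at, at 8.983 against 9.66 to 9.77 in the other p53+/+ tumors. p53+/+ tumor 2 was low at Cox6a1 1417417_a_at, at 11.49 against 12.19 to 12.27 in the other p53+/+ tumors.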

How the results depend on the processing

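Of 1070 alternatives over the 54 named values, 975 kept direction and call status, 60 lost the call, 20 gained one and 15 changed sign. Most named values were not called in the main fit, and staying uncalled counts among the 975. All 60 losses came from the few called values, whose kept calls are counted one by one below. The 3 members called lower between p53-/- and p53+/+ tumors became 0 with dim probe sets left out, 0 with 8 tumors in the fit, 1 with trend and robust moderation and 0 with the methods' t-test after adjustment. The 2 called lower between R172H and p53+/+ tumors became 4 with centered arrays, 1 with 1 probe set per gene, 1 without _x_at and _s_at probe sets, and 0 with 8 tumors in the fit, trend and robust moderation, the methods' t-test or the block on the poly-A control level. Leaving out each tumor gave 0 to 9 lower and 0 to 1 higher between p53-/- and p53+/+ tumors, 0 to 12 lower and 0 to 4 higher between R172H and p53+/+ tumors, and 0 lower and 0 to 3 higher between R172H and p53-/- tumors. The median differences then ran from -0.18 to -0.11, from -0.17 to -0.07 and from -0.06 to 0.01 in the same 3 comparisons. Over the remaining alternatives they ran from -0.21 to -0.14, from -0.17 to -0.03 and from -0.03 to 0.01. Over the alternatives, Cox5b 1436149_at stayed called in 12 of 19 (limma adjusted p from 0.0235 to 0.131), Ndufa1 in 6 of 20 (0.0372 to 0.118), Cox6a2 in 4 of 19 (0.0167 to 0.131), Ndufs5 in 8 of 20 (0.0187 to 0.521) and Ndufs8 1434579_x_at in 8 of 20 (0.00821 to 0.411). The cause of these changes was not tested.

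Deviations from group means correlated between tumors of the same replicate number at r from 0.0023 to 0.33, above 0.1 in 6 of 12 pairs. Tumors of different numbers were not correlated for comparison, so whether the replicate numbers pair the tumors was not tested. With the replicate number as a block, 2 members were lower between p53-/- and p53+/+ tumors (Ndufa1 and Ndufb9) and 0 between R172H and p53+/+ tumors.

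All 15 sign changes came with the block on the poly-A control level, where the R172H value rests on R172H tumor 4. Relative to p53+/+ tumors they were Cox5b (0.13, 0.10, 0.0554 and 0.16 at 4 probe sets), Cox7a2l 1421772_a_at 0.0235, Cox8c -0.0475, Ndufaf4 1427997_at 0.0215, Ndufa13 0.0112, Ndufb6 0.18, Uqcrc2 0.11 and Ndufa4 -0.58. Relative to p53-/- tumors they were Cox8a (-0.32 at 1448222_x_at and -0.34 at 1416112_at), Ndufc1 1448284_a_at 0.0580 and Ndufb2 1448483_a_at -0.48.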
